A study of Cricetulus griseus with 6 samples.

Results

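Arsg, Ecm1, Mettl22, Nedd9, Vcam1, Add2, Pde1c and CUNH1orf87 are 8 of the 14899 genes that stood as the only symbol of a transcript cluster of the array, and they were chosen by a large rise of their log2 signal in untreated CHO-K6 cells over untreated CHO-K1 cells. A transcript cluster is the set of probes that reports 1 transcript unit, and each of the 8 genes had exactly 1 such cluster among the 29700 measured. CHO-K1 is the parental Chinese hamster ovary cell line, and CHO-K6 is a clone of it that stably overexpresses human HER2. Total RNA was hybridized to 6 Affymetrix CHO Gene ST arrays, 1 per condition. The conditions were CHO-K6 with trastuzumab, CHO-K6 with pertuzumab, CHO-K6 with both antibodies (trastuzumab + pertuzumab, the combination), CHO-K6 without antibody, CHO-K1 with the combination, and CHO-K1 without antibody. The cells were starved in low serum for 24 h, and the antibodies were then used at 10 µg/mL for 24 h in fresh medium with more serum. No array of cells given a control antibody was analysed here. CHO-K6 was maintained under G418 selection, so that human HER2, the history of the clone and the selection cannot be told apart in any difference between the lines. Since each condition has 1 array, there was no replicate error to test a difference against, and all values describe these arrays.

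HER2 is a receptor tyrosine kinase of the epidermal growth factor receptor family, and trastuzumab and pertuzumab are antibodies that bind different domains of its extracellular part. Signals from such receptors can reach genes of cell adhesion, the matrix and the cytoskeleton. The paper states that the canonical pathways downstream of HER2 (PI3K/AKT and MAPK) are not functional in CHO-K6. It also reports strong HER2 phosphorylation in these cells and proposes that HER2 overexpression changed their gene expression. A link from HER2 signals to the 8 genes was not tested. The 8 genes fall into several roles. Ecm1 encodes a secreted matrix glycoprotein and Vcam1 an adhesion receptor of the cell surface, while Nedd9 encodes a docking protein of focal adhesions and Add2 beta-adducin, which joins spectrin to actin beneath the membrane. Arsg encodes a lysosomal sulfatase, Pde1c a calmodulin-dependent phosphodiesterase, and Mettl22 a protein methyltransferase.

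The median log2 signal was 5.89 to 5.91 on every array. The labels call the cells epithelial, but the epithelial markers with a value (4 of 6 listed: Krt8, Krt18, Epcam and Cdh1) had log2 signals of 3.98 to 6.49 over the 6 arrays. The mesenchymal markers with a value (5 of 6 listed) had 5.09 (Cdh2) to 13.30 (Vim), and of these the collagen gene Col3a1 differed between the lines by −1.02 with the combination and −1.15 without. The hamster Erbb2 cluster had a log2 signal of 9.01 in untreated CHO-K6 and 8.50 in untreated CHO-K1, and how far it reads the human transcript was not tested.

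The levels of all 8 genes fell into separate ranges in the 2 lines. In every one of the 8 genes, all 4 CHO-K6 arrays lay above both CHO-K1 arrays, which was the case for 15.9% of all 29700 transcript clusters. The space between the lowest CHO-K6 and the highest CHO-K1 array was 2.47 (Add2) to 4.04 (Arsg) on the log2 scale, whereas the 4 CHO-K6 arrays of a gene lay within 0.04 (Arsg) to 0.39 (CUNH1orf87) of each other. A space of 2-fold or more occurred in 0.481% of all clusters. The untreated arrays of both lines had chosen the genes, so that these counts partly follow from the choice. RNA was taken from whole dishes, and more cells expressing a gene and more RNA per cell cannot be told apart.

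**Figure D1:**
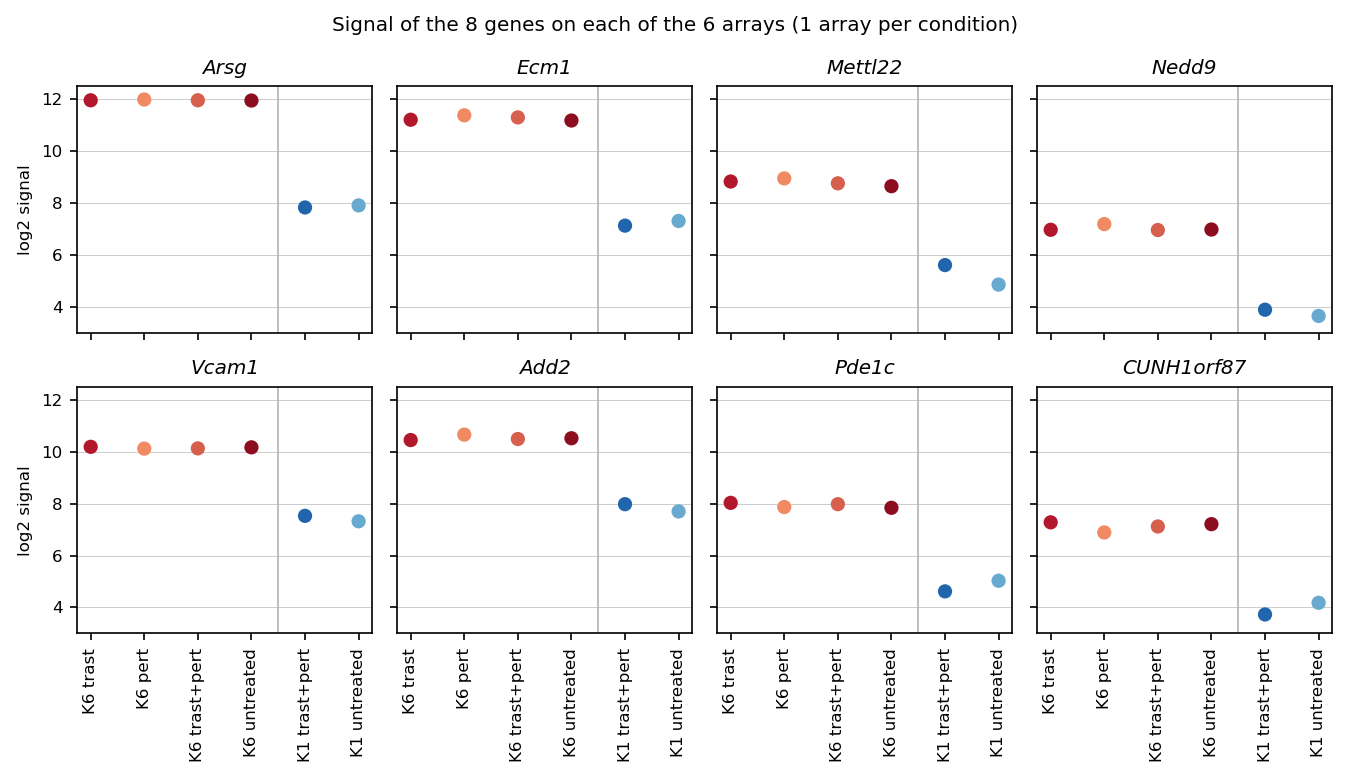
Log2 signal (vertical axis) of the 8 genes on each of the 6 arrays (horizontal axis), with 1 point per array, CHO-K6 in reds left of the grey line and CHO-K1 in blues right of it. The CHO-K6 points of a gene lie within 0.39 of each other, and the lowest of them is at least 2.47 above the highest CHO-K1 point.

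Ecm1 and Vcam1 are the genes of the matrix and the cell surface. Ecm1 encodes extracellular matrix protein 1, which in human tissue binds perlecan and the gelatinase MMP9. Its log2 signal was 11.20 in CHO-K6 with trastuzumab, 11.37 with pertuzumab, 11.29 with the combination and 11.17 in untreated CHO-K6, against 7.12 in CHO-K1 with the combination and 7.30 in untreated CHO-K1. The pertuzumab array was the highest, and the line difference was 4.17 with the combination (18.0-fold) and 3.87 without antibodies (14.6-fold). Vcam1, the vascular cell adhesion molecule that integrins with the Itga4 chain bind, had 10.19, 10.12 and 10.13 in CHO-K6 with trastuzumab, pertuzumab and the combination and 10.17 in untreated CHO-K6, against 7.53 in CHO-K1 with the combination and 7.32 in untreated CHO-K1. The CHO-K6 levels of Vcam1 thus spanned 0.07, and the line difference was 2.60 with the combination (6.06-fold) and 2.85 in untreated cells (7.21-fold). Vcam1 is best known from activated endothelium, and the endothelial markers with a value (4 of 5) had log2 signals of 3.46 to 6.16 over the 6 arrays.

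Nedd9 and Add2 act on the inner side of the membrane. Nedd9 is a member of the CAS family, which focal adhesion kinase and SRC phosphorylate and which then docks CRK adaptors during cell migration. It had a log2 signal of 6.96 in CHO-K6 with trastuzumab, 7.18 with pertuzumab, 6.95 with the combination and 6.97 untreated, against 3.88 in CHO-K1 with the combination and 3.64 untreated. The line difference of Nedd9 was 3.07 with the combination (8.40-fold) and 3.33 untreated (10.1-fold). Add2, the beta subunit of adducin, caps the fast-growing ends of actin filaments as part of the adducin oligomer. It had 10.45 in CHO-K6 with trastuzumab, 10.66 with pertuzumab, 10.49 with the combination and 10.52 untreated, against 7.98 in CHO-K1 with the combination and 7.70 untreated. Among the 8 genes, Add2 had the smallest line difference with the combination, 2.51 (5.70-fold), and in untreated cells the difference was 2.82 (7.06-fold).

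Arsg, Pde1c and Mettl22 encode enzymes. Arsg, arylsulfatase G, removes sulfate groups from heparan sulfate in the lysosome. Its log2 signal was 11.95 in CHO-K6 with trastuzumab, 11.98 with pertuzumab, 11.95 with the combination and 11.94 untreated, against 7.82 in CHO-K1 with the combination and 7.90 untreated. Arsg was the steadiest of the 8 genes within either line, with a spread of 0.04 over the CHO-K6 arrays and 0.08 over the CHO-K1 arrays, and its line difference was 4.13 with the combination (17.5-fold) and 4.04 untreated (16.4-fold). Pde1c, which breaks down cyclic AMP and cyclic GMP when calcium and calmodulin activate it, had 8.03 with trastuzumab, 7.87 with pertuzumab, 7.98 with the combination and 7.84 untreated in CHO-K6, against 4.62 with the combination and 5.03 untreated in CHO-K1. The line difference of Pde1c was larger with the combination (3.36, 10.3-fold) than in untreated cells (2.81, 7.01-fold).

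Mettl22, which in human cells methylates the nucleic acid-binding protein encoded by Kin, had a log2 signal of 8.82 in CHO-K6 with trastuzumab, 8.94 with pertuzumab, 8.75 with the combination and 8.64 untreated, against 5.60 in CHO-K1 with the combination and 4.85 untreated. All 3 antibody-treated CHO-K6 arrays lay above the untreated one, as they also did for Arsg, Ecm1 and Pde1c. The untreated array was the lowest of CHO-K6, ties included, in 27.9% of all clusters. The CHO-K1 arrays of Mettl22 stood further apart (0.75) than those of any other of the 8 genes. The line difference was 3.15 with the combination (8.88-fold) and 3.79 untreated (13.8-fold), which differ 1.56-fold from each other. For CUNH1orf87, an open reading frame named only by its number, the signal was 7.28 in CHO-K6 with trastuzumab, 6.89 with pertuzumab, 7.12 with the combination and 7.21 untreated, against 3.73 in CHO-K1 with the combination and 4.18 untreated. Its pertuzumab array was the lowest of CHO-K6, and the line difference was 3.39 with the combination (10.5-fold) and 3.03 untreated (8.17-fold). Mettl22, Nedd9, Pde1c and CUNH1orf87 had log2 signals under 6 on both CHO-K1 arrays. The files give no detection call, so that it is not known whether these 4 genes were expressed in CHO-K1 at all.

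The rule for the genes used the untreated arrays, and the trastuzumab + pertuzumab arrays of both lines give the same line comparison on other arrays, although results of all 6 arrays were known when the genes were chosen. Between them, 8 of the 8 genes were higher in CHO-K6 by 2-fold or more, where 2.18% of all clusters were. The median difference of the 8 genes was 3.255 beside −0.05 over all clusters. Ranked by this difference among the 16481 clusters with a single gene symbol, Ecm1 took place 1, Arsg 2, CUNH1orf87 4, Pde1c 5, Mettl22 6, Nedd9 7, Vcam1 9 and Add2 11. Between the untreated arrays, which chose the genes, the median was 3.18 beside −0.03 over all clusters, 8 of 8 were higher by 2-fold or more as were 1.47% of all clusters, and the places were 1 to 3 for Arsg, Ecm1 and Mettl22, 5 for Nedd9, 6 for CUNH1orf87 and 9 to 11 for Vcam1, Add2 and Pde1c. The choice had no stated threshold.

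The line difference was larger with the antibodies than without in 4 genes (Arsg, Ecm1, Pde1c and CUNH1orf87) and smaller in the other 4. The shift was 1.5-fold or more in 1 gene, Mettl22 (−0.64), where 6.81% of all clusters shifted as much. Pde1c came next with a shift of 0.55 and CUNH1orf87 with 0.36. In all 3 the CHO-K1 arrays differed by more than the matching CHO-K6 arrays did.

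**Figure D2:**
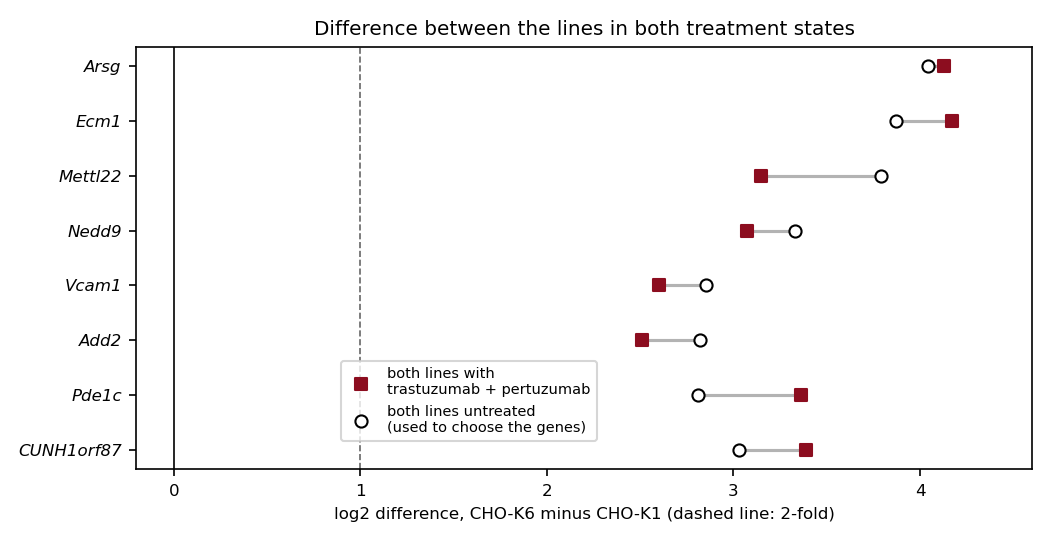
Log2 difference between the lines, CHO-K6 minus CHO-K1 (horizontal axis), for the 8 genes (rows), with squares for the trastuzumab + pertuzumab arrays, open circles for the untreated arrays and a dashed line at 2-fold. All squares lie between 2.51 and 4.17, and Mettl22 has the widest distance between its marks, 0.64.

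To examine whether the antibodies moved these genes in the HER2 line, each treated CHO-K6 array was set against the untreated one. None of the 8 genes differed by 2-fold or more with trastuzumab, with pertuzumab or with the combination, where 0.0976%, 0.593% and 0.118% of all clusters did, and none differed by 1.5-fold either, as 1.31%, 4.35% and 1.55% of all clusters did. The values ran from −0.07 to 0.19 with trastuzumab (median 0.025, beside 0 over all clusters), from −0.32 to 0.30 with pertuzumab (0.09, beside 0.04) and from −0.09 to 0.14 with the combination (−0.005, beside 0.01). These 3 comparisons share the untreated CHO-K6 array, which also took part in choosing the genes.

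With pertuzumab, the widest differences were those of CUNH1orf87 (−0.32), Mettl22 (0.30), Nedd9 (0.21) and Ecm1 (0.20). When all clusters were ordered by mean signal and split into 10 equal groups, the clusters of similar signal in the same group often differed as much on the same arrays, by 0.32 or more in 25.8% of them for CUNH1orf87 and by 0.30 or more in 29.0% for Mettl22. With trastuzumab, Pde1c (0.19) and Mettl22 (0.18) stood furthest from untreated CHO-K6, and 14.0% and 16.3% of the clusters of similar signal differed as much. With the combination, these were Pde1c (0.14, as in 24.3% of similar clusters) and Ecm1 (0.12, as in 19.8%). On every antibody-treated CHO-K6 array each of the 8 genes was at least 2.47 above both CHO-K1 arrays, and CUNH1orf87 with pertuzumab was 2.71 above the higher of them.

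Among the 4 CHO-K6 arrays the pertuzumab array had the highest signal in 5 of the 8 genes (Arsg, Ecm1, Mettl22, Nedd9 and Add2), and it was the highest in 40% of all clusters. The untreated array was the highest in 0 of 8 and the lowest in 4, where it was the highest in 22.9% and the lowest in 27.9% of all clusters. Pertuzumab and trastuzumab, compared directly on arrays that the rule for the genes did not use, differed by −0.39 for CUNH1orf87 to 0.22 for Nedd9, with a median of 0.075 beside 0.04 over all clusters. None of the 8 reached 2-fold there, as 0.768% of all clusters did.

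**Figure D3:**
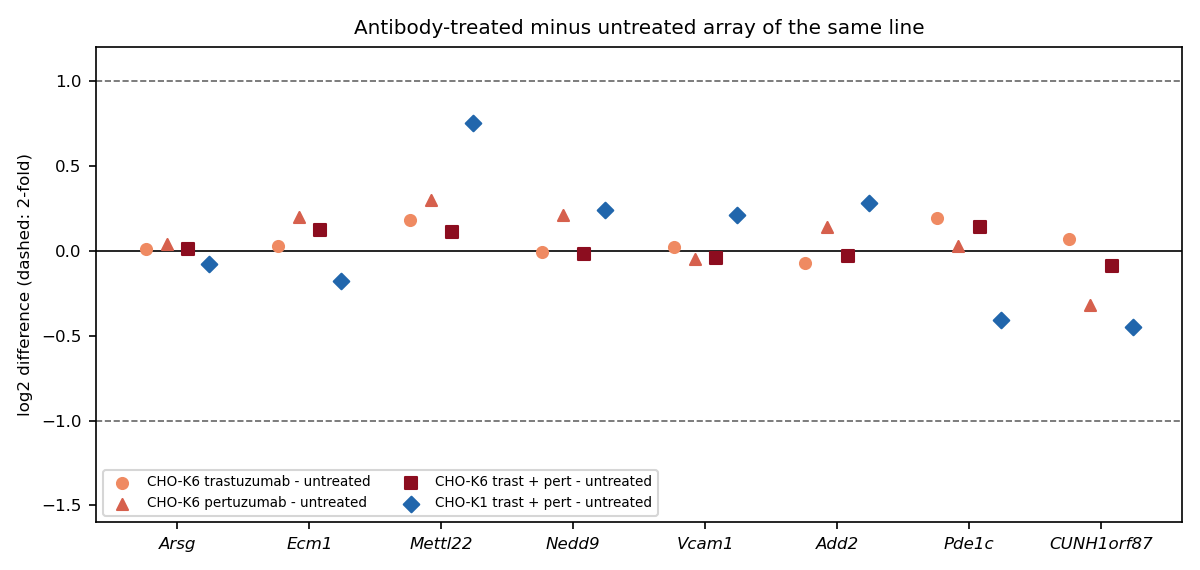
Log2 difference of each antibody-treated array from the untreated array of the same line (vertical axis) for the 8 genes (horizontal axis), with circles for trastuzumab, triangles for pertuzumab and squares for the combination in CHO-K6, and diamonds for the combination in CHO-K1. No mark reaches the dashed lines at 2-fold, and the widest is Mettl22 in CHO-K1 at 0.75.

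CHO-K1 cells, which do not carry human HER2, served as the background for the combination. Between their arrays, treated and untreated, 4 of the 8 genes were higher and 4 lower with the antibodies, and none by 2-fold, which 0.249% of all clusters reached. Mettl22 was the 1 gene of the 8 past 1.5-fold, with 0.75, a size that 1.48% of clusters of similar signal and, for 1.5-fold, 3.01% of all clusters reached. The other differences were 0.28 for Add2, 0.24 for Nedd9, 0.21 for Vcam1, −0.08 for Arsg, −0.18 for Ecm1, −0.41 for Pde1c and −0.45 for CUNH1orf87. For Pde1c and CUNH1orf87, 12.1% and 12.3% of clusters of similar signal differed as much. The 8 genes thus varied more between the CHO-K1 arrays than between the matching CHO-K6 arrays, where the combination differed from untreated by at most 0.14. The wider spread was not particular to them. Of all clusters, 3.01% differed by 1.5-fold or more between the CHO-K1 arrays and 1.55% between the matching CHO-K6 arrays. In 6 of the 8 genes the difference with the combination had opposite signs in the lines, as in 42.7% of all clusters. The lower signals of these genes in CHO-K1 moved with this wider spread, and their part in it was not tested.

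The profiles of the 8 genes over the 6 arrays were compared by the root mean square difference, on the log2 scale, between profiles each centred on its own mean. The closest pairs were Arsg and Ecm1 (0.0647), Vcam1 and Add2 (0.0872) and Pde1c and CUNH1orf87 (0.111), and the most distant pair was Arsg and Add2 (0.673). All 8 were chosen by the line difference, which enters this measure. Beyond the 8, the nearest profiles among up to 10067 clusters with 1 gene symbol and a mean log2 signal of 6 or more belonged to 4 genes. The mean was taken over all 6 arrays, so that a gene could pass through its CHO-K6 signals. Slc25a36 (3.57 with the combination and 3.70 untreated) and Adh7 (4.65 and 4.08) were under 6 on both CHO-K1 arrays. Clusters with a lower mean were not compared, and closer profiles among them are possible. Slc25a36, a mitochondrial carrier of pyrimidine nucleotides, was among the 3 nearest to Arsg (0.296), Ecm1 (0.307), Mettl22 (0.341) and CUNH1orf87 (0.225). Adh7, an alcohol dehydrogenase, was near Vcam1 (0.141) and Add2 (0.174). Slc7a11, the cystine and glutamate exchanger, was near Vcam1 (0.177), Pde1c (0.252) and CUNH1orf87 (0.259), and Igf2bp3, an RNA-binding protein gene, near Add2 (0.243). With pertuzumab Slc25a36 had a log2 signal of 6.89 against 7.26 in untreated CHO-K6, and Slc7a11 8.48 against 8.82. Adh7 had 6.80 against 7.02 and Igf2bp3 7.87 against 8.20. All 4 were thus lower with pertuzumab, as were 43.8% of all clusters. With trastuzumab Slc25a36 (7.41) and Slc7a11 (8.99) were above untreated CHO-K6, Adh7 was equal to it (7.02) and Igf2bp3 was lower (8.04).

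The genes lying next to the 8 were examined for a line difference of their own. In the RefSeq gene order of the hamster assembly CriGri-PICRH-1.0, the 3 protein-coding genes on either side of each gene came to 48, of which 40 had a value. Of these 40, 0 differed between the lines by 2-fold or more in either treatment state, where 3.02% of all clusters did with the combination and 2.1% without. A count of 0 in 40 lies near these shares. Some neighbours had low log2 signals on every array, such as Adtrp (3.30 to 3.61) and Ppp1r17 (3.52 to 3.91), where a line difference might not show. The differences of the 40 ran from −0.91 to 0.74 with the combination (median 0.055) and from −0.86 to 0.62 without (median −0.085). Slc16a6 and Wipi1 overlap the span of Arsg, and both had lower values in CHO-K6, with differences of −0.30 with the combination and −0.42 without for Slc16a6, and of −0.15 and −0.24 for Wipi1. Fam136a, near Add2, had the lowest value without antibodies (−0.86), and Slc30a7, a zinc transporter gene near Vcam1, the highest with them (0.74).

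**Figure D4:**
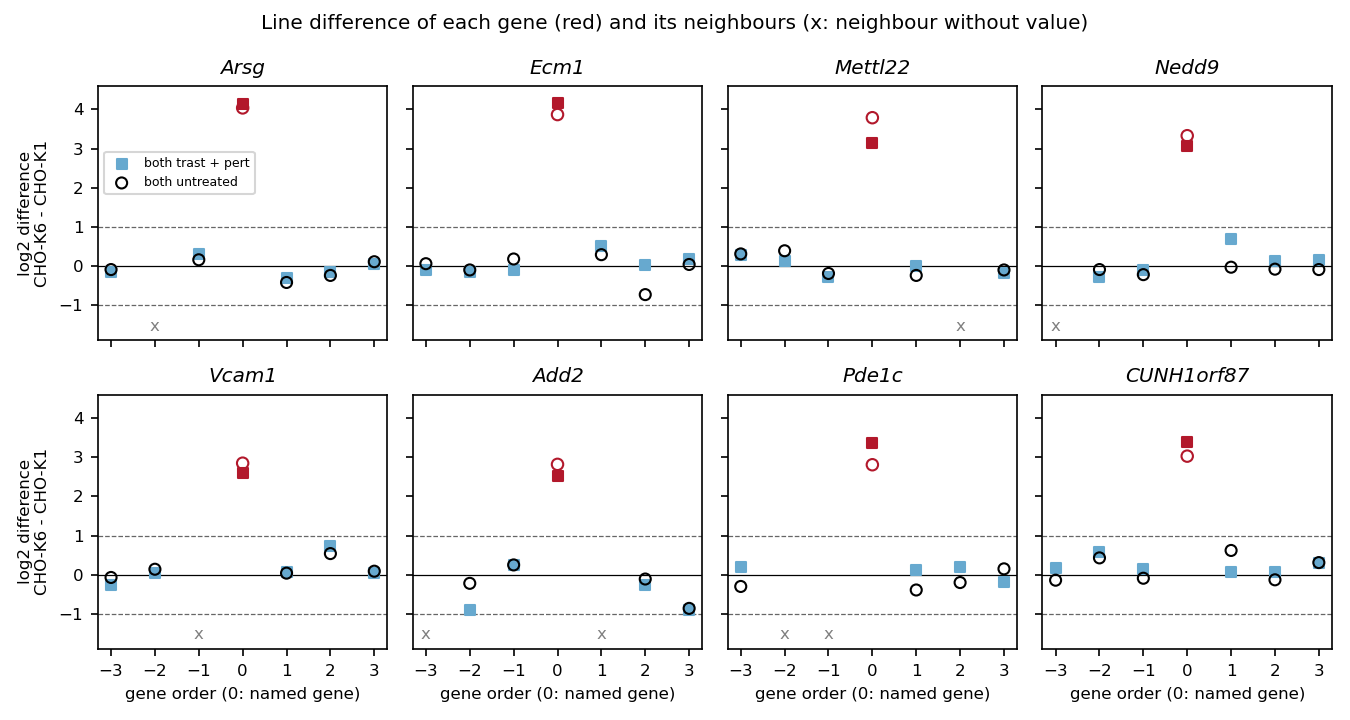
Log2 difference between the lines, CHO-K6 minus CHO-K1 (vertical axis), of each of the 8 genes (place 0, red) and of up to 3 protein-coding genes on either side in the RefSeq order (horizontal axis), with squares for the trastuzumab + pertuzumab arrays and open circles for the untreated arrays. All 40 neighbours with a value lie between −0.91 and 0.74, within the dashed 2-fold lines, and a grey x marks a neighbour with no value here.

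Genes related to the 8 by function were taken from 9 lists, with values for 121 of 154 genes. Of these, 7 of 121 differed between the lines by 2-fold or more with the combination and 6 of 121 without, where 3.02% and 2.1% of all clusters did. Over both states these were 8 genes, 2 higher and 6 lower in CHO-K6. Among all clusters 646 were higher and 252 lower with the combination, and 436 and 187 without. The list genes were counted over both states together and the clusters within each state, so that these counts are not alike. The lists were also chosen with earlier results known, and a difference in direction was not tested. The median difference over the 121 was −0.07 with the combination and −0.09 without, beside −0.05 and −0.03 over all clusters. A list held at most 18 measured genes, so that a count of 1 at 2-fold lies near the shares of 3.02% and 2.1%.

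Among phosphodiesterase and calmodulin genes, 1 of 18 was higher by 2-fold or more. This was Pde7a, a phosphodiesterase specific for cyclic AMP, which had 8.94 in CHO-K6 with the combination and 8.82 in untreated CHO-K6, against 7.20 in CHO-K1 with the combination and 7.44 untreated (differences 1.74 and 1.38). The relatives of Pde1c itself, Pde1a and Pde1b, had differences of 0.16 and −0.48 with the combination and 0.07 and −0.33 without. Among sulfatases and their activators, 1 of 11 reached 2-fold. Sulf2, the cell surface sulfatase of heparan sulfate, had a line difference of −1.52 with the combination and −1.67 without, while Sumf1, which activates sulfatases, had 0.58 and 0.52. Of the lysosomal enzymes that degrade heparan sulfate, 0 of 6 differed 2-fold, and the widest in untreated cells was the acetyltransferase gene Hgsnat (0.38 with the combination and 0.47 without).

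No gene of the matrix list was higher in CHO-K6 by 2-fold. Of 15 measured genes 13 had a difference below 0 in untreated cells, as did 53.2% of all clusters, with a median of −0.22 with the combination and −0.18 without. In either state 2 were lower by 2-fold or more, where 0.848% of all clusters were with the combination and 0.63% without, the matricellular genes Postn (−2.48 and −2.65) and Thbs1 (−1.12 and −1.23). Of the proteins that ECM1 binds, perlecan (Hspg2) had −0.57 and −0.51 and Mmp9 0.17 and 0.33. Of the CAS family and focal adhesion genes, 1 of 17 differed 2-fold, and only with the combination. This was Efs, a relative of Nedd9 (−1.04, and −0.69 without antibodies), while another relative, Bcar1, had −0.28 and −0.27 and the kinase gene Ptk2 0.73 and 0.70.

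No gene of 16 in the list of VCAM1 receptors and adhesion molecules reached 2-fold. The widest was Alcam (0.78 with the combination and 0.79 without), another adhesion receptor, and Icam1, which like Vcam1 is induced by cytokines through NF-kB, had −0.23 and −0.16. Itga4, the integrin chain that binds VCAM1, had log2 signals of 3.55 to 3.96 over the 6 arrays. In the list of NF-kB and cytokine targets the median was −0.09 with the combination and −0.10 without over 13 genes. Traf1, an adaptor of tumour necrosis factor receptors, was lower by 2-fold or more (−1.28 and −1.13), and the chemokine gene Cxcl1 reached 2-fold with the combination alone (1.01, against 0.75 in untreated cells).

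For the membrane skeleton, 1 of 15 genes reached 2-fold, the ankyrin gene Ank1, with a difference of −0.87 with the combination and −1.24 without. Add1, the alpha subunit that pairs with beta-adducin, had 0.22 and 0.16. No gene of 11 in the protein methyltransferase list differed 2-fold, the widest in untreated cells being Eef1akmt3 (−0.84 with the combination and −0.75 without), and Kin had 0.54 and 0.14. Whether the line difference of Cxcl1, Efs or Ank1 depended on treatment was not tested.

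**Figure D5:**
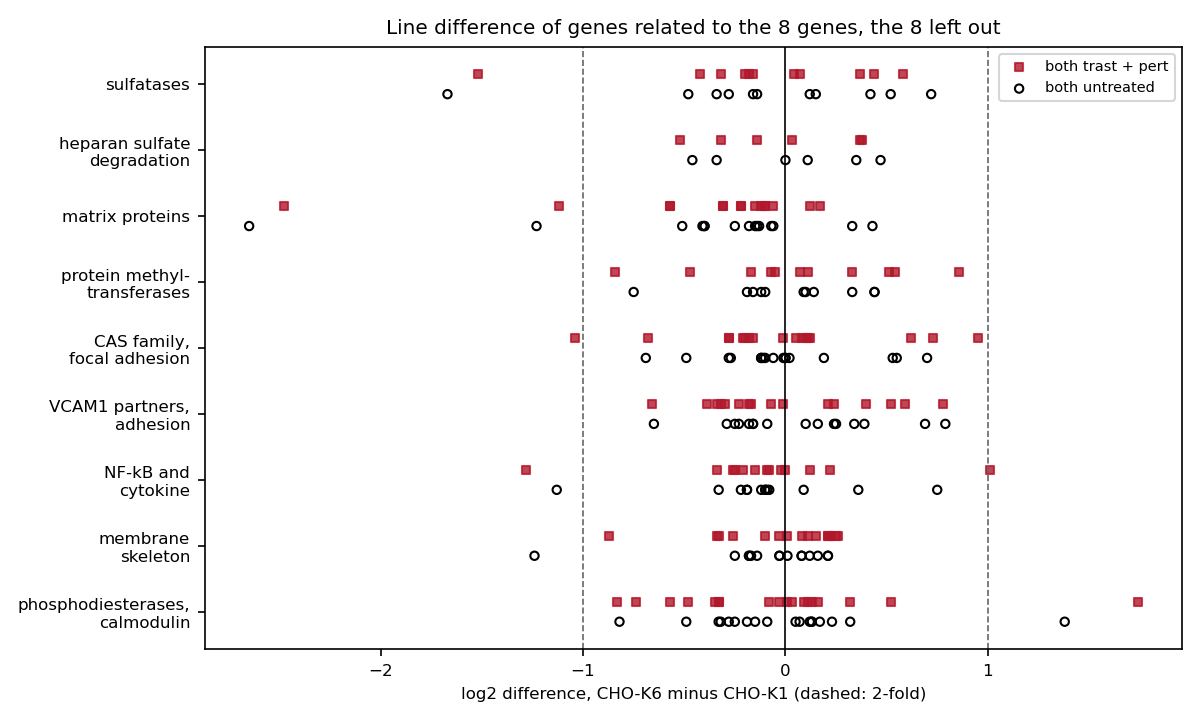
Log2 difference between the lines, CHO-K6 minus CHO-K1 (horizontal axis), of the measured genes of 9 related lists (rows), the 8 genes themselves left out, with squares for the trastuzumab + pertuzumab arrays and open circles for the untreated arrays. Pde7a is the point at 1.74 and Postn the points at −2.48 and −2.65, and most others lie within the dashed 2-fold lines.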

How the data were processed

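The authors deposited log2 signals per transcript cluster of Affymetrix CHO Gene ST arrays, made with the Affymetrix Transcriptome Analysis Console 3.0. The submitters' processing notes also name the Affymetrix Expression Console, and the normalization method is not given in the sources used here. The log2 signals were used as deposited, with no further scaling. Symbols came from the platform annotation, which gives 1 symbol to 16481 clusters, several to 793 and none to 12426. Where a gene had several clusters the brightest was taken.

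With 1 array per condition no test was run. A cluster counts as changed at 2-fold or more. All 8 genes are named, as are list genes and neighbours at 2-fold in either line comparison, the widest of each other list and the 3 nearest profiles per gene; further named list genes and neighbours were chosen after their values were seen. The 8 genes and the lists were chosen with earlier results of these data known. Alternatives were quantile normalization, the series matrix (30934 clusters), a 1.5-fold threshold, the mean of a gene's clusters and a minimum log2 signal of 6 on at least 1 of the arrays compared. The 2-fold call was tested on simulated arrays, and quantile normalization on a small known case. The other calculations were not tested in this way. Python 3.11.15, NumPy 2.4.6, pandas 2.3.3 and Matplotlib 3.10.9 were used.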

Additional observations from a re-analysis of the deposited data

Results flagged for a closer look

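In 6 of the 8 genes the difference between the combination and the untreated array had opposite signs in the 2 lines. None of the 6 reached 1.5-fold in either line, and with 1 array per condition the difference between the lines was not tested. In CHO-K6 the differences were only 0.01 for Arsg, −0.02 for Nedd9, −0.03 for Add2 and −0.04 for Vcam1. They were 0.12 for Ecm1 and 0.14 for Pde1c, so that the signs in CHO-K6 rest on small values. The difference in CHO-K6 minus that in CHO-K1 was 0.55 for Pde1c, 0.30 for Ecm1, 0.09 for Arsg, −0.25 for Vcam1, −0.26 for Nedd9 and −0.31 for Add2 on the log2 scale. Of all 29700 clusters 42.7% had opposite signs in the lines. The 8 genes were chosen for a high untreated CHO-K6 and a low untreated CHO-K1 array, and both arrays enter these differences.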

How the results depend on the processing

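Under quantile normalization and in the series matrix, 147 of 147 recomputed values kept their side of the 2-fold threshold or moved by less than 1.5-fold, and the log2 differences of single genes moved by at most 0.0433. The series matrix differed from the signals used by at most 0.005 on shared clusters, so that its values could hardly move. The arrays already had near-equal medians, which left quantile normalization little to change. Both alternatives therefore say little about stability. At 1.5-fold in place of 2-fold, 1 of the 8 genes (Mettl22) was counted between the CHO-K1 arrays in place of 0, 3 neighbouring genes in place of 0 and 15 related genes in place of 6 between the untreated lines. Other alternatives could not change the counts of the 8 genes between the lines and say nothing about stability. Each gene has 1 cluster, so that the mean over clusters is the same value and 0 other clusters could be compared. With a minimum log2 signal of 6 on at least 1 of the arrays compared, all 8 genes pass through CHO-K6 wherever a CHO-K6 array takes part. Between the CHO-K1 arrays Mettl22 (5.60 and 4.85), Nedd9, Pde1c and CUNH1orf87 do not reach this minimum. The Mettl22 difference of 0.75 there thus rests on low signals. Leaving out the CHO-K6 pertuzumab array, chosen after seeing the data, cannot lower the count of genes with every CHO-K6 array above both CHO-K1 arrays. The labels number no replicates that could be paired, and a joint fit of line and treatment over the 6 arrays was not run. With no background estimate in the files, low CHO-K1 signals limit the folds of Mettl22, Nedd9, Pde1c and CUNH1orf87.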
